A study of Mus musculus with 24 samples.

Results

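The mRNAs of 40 genes of the cell cycle were followed in the growing tail end of mouse embryos with a conditional knockout of Srf, the gene of the transcription factor SRF. Of these genes, 24 act in DNA replication and its entry (the replication members, from Mcm2 to E2f1) and 16 act in mitosis (the mitosis members, from Cdk1 to Cenpa). They were chosen by name, as every probe of the bead array table that carries one of the 40 symbols. Among 25697 probes, 57 carried a member's symbol and covered 34 of the 40 members, among 16593 genes that the table names. Rfc3, Gins1, Gins2, Ccnb1, Aurkb and Mki67 have no probe named for them in the tables used and were not analysed here. Pola1, Ccnb2 and Bub1 were above background on none of the 24 arrays and Prim1 on 1, so no change is given for these 4. The remaining 30 members, 19 of replication and 11 of mitosis, were measured. Cyclin A2 (Ccna2) is among them but was above background on 8 of 24 arrays, none of them at E9.0.

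A cell that commits to division first loads the MCM helicase (Mcm2 to Mcm7) onto replication origins with the help of CDC6 and CDT1. Cyclin E and its kinase then start DNA synthesis, for which the clamp PCNA, its loader RFC and the enzymes that make deoxynucleotides are needed. E2F transcription factors drive many of these genes when the retinoblastoma family releases them. Genes of mitosis peak later in the cycle, through MuvB complexes that bind promoters at the cell cycle homology region (CHR) and through NF-Y, which binds CCAAT. The caudal end of the embryo holds dividing progenitors of the tail bud and presomitic mesoderm that lengthen the body axis.

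RNA came from the unsegmented caudal end of embryos of strain C57Bl/6 at 3 stages (E8.5, then E8.75, then E9.0), with 4 arrays for each genotype and stage. Knockout embryos are labelled Srf(-/-), and controls are titled wild type but labelled Srf(+/-). Per the labels, both came from parents that were SRF(flex1/+) and T:cre/T:cre, so the control embryos carry the same Cre, driven by T in the primitive streak and the mesoderm made from it. Cells that never expressed T, and their descendants, would keep the conditional allele. The labels do not say whether the 4 arrays of a group are separate embryos, pools or litters, so p-values measure only how much these arrays vary, and that may be technical. They also do not say whether the arrays of a stage were processed together, so stage and processing cannot be told apart.

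The E8.75 arrays stand apart in brightness. Their median intensity was 145.1 to 173.3, against 36.8 to 45.9 for E8.5 and 36.8 to 38.9 for E9.0, so E8.75 was compared with no other stage. Srf itself had a log2 change in the knockout of -1.09 for E8.5 (adjusted p = 0.0381) and -0.81 for E9.0 (adjusted p = 0.00125), both called, and of -1.0 for E8.75 (adjusted p = 0.532), not called. Its signal was 9.11, 9.36, 9.36 and 9.23 in the E8.5 controls, and 8.40, 8.11, 7.92 and 8.26 in the knockouts. At E8.75 it was 8.99, 9.89, 9.13 and 8.10 against 8.01, 8.51, 7.64 and 7.92, and the groups overlap. At E9.0 it was 9.26, 9.13, 9.28 and 9.39 against 8.46, 8.67, 8.18 and 8.5, and they do not. Markers of the caudal end itself (14 genes) averaged 7.91 to 8.78 over the 24 arrays, as log2 signal. This mean does not speak for each marker: in the E8.75 controls, 2 of the 14 were above background on no array and 10 on all 4.

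Other cell types in the dissected pieces varied with the groups. Markers of primitive erythroid cells fell in the E9.0 knockout for 14 of 14 genes, with a median log2 change of -2.95, and their mean signal was 9.11 to 10.60 in the controls and 5.67 to 8.19 in the knockouts. Of 7 endothelial markers, 2 fell there and none rose (median -0.32, lowest -2.28), and their mean was 7.14 to 7.35 in the controls and 6.40 to 7.19 in the knockouts, which overlap. Yolk sac endoderm markers were high at E8.5 in both genotypes (7.44 to 10.16) and low at E9.0 (4.86 to 5.13). At E8.75 these yolk sac markers averaged 5.50 to 6.41 in controls and 6.71 to 9.24 in knockouts, a median difference of 2.98. The part of these cells in the results below was not tested. In such bulk samples, fewer cells of a type and less RNA per cell cannot be told apart.

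The division genes had no called change in the Srf knockout at E8.5. No replication member and no mitosis member passed the test between knockout and control, and 1 gene of the 11008 features tested, Srf, did (0.00908%, limma with Benjamini-Hochberg adjusted p under 0.05). Without adjustment, 0 of the 30 members and 2.76% of all features had a p under 0.05. The median log2 change was 0.002 over the replication members and 0.02 over the mitosis members. A missed threshold does not show that levels were equal, but the 95% interval of every measured member lay within a 2-fold change in either direction, a log2 of 1. For Ccna2, above background on 0 control and 1 knockout array of E8.5, the interval bounds no change. The widest reach was that of Pcna, to -0.76.

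Mcm2, a subunit of the replicative helicase, had log2 signals of 10.76, 10.65, 10.55 and 10.50 in the E8.5 controls and 10.79, 10.60, 10.60 and 10.98 in the knockouts. Its difference was 0.13 ± 0.12 (SE, adjusted p = 1), and the groups overlap. Pcna, the sliding clamp of the replication fork, read 6.40, 6.61, 6.60 and 7.01 against 5.77, 6.88, 6.63 and 6.25, a difference of -0.27 ± 0.22 with overlap on most arrays. Cdk1, the kinase that drives entry into mitosis, read 11.70, 11.50, 11.65 and 11.49 in controls and 11.67, 11.67, 11.61 and 11.02 in knockouts. Its difference of -0.09 ± 0.15 rests on the fourth knockout array, which is the low one.

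At E8.75 again none of the 30 members was called, beside 5 of all features (0.0454%), and 0 members against 6.38% of all features had an unadjusted p under 0.05. The medians were -0.05 for replication and 0.05 for mitosis. The intervals lay within a log2 change of 1 for 17 of 19 replication and 11 of 11 mitosis members. The exceptions were Mcm3, another helicase subunit, with an interval from -0.90 to 1.14, and cyclin E2 (Ccne2), from -1.08 to 0.71.

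Both exceptions trace to the E8.75 controls, which scatter widely. Mcm3 read 9.70, 7.70, 9.16 and 10.43 there, against 9.31, 9.71, 9.58 and 8.86 in the knockouts. Ccne2 read 8.70, 7.52, 8.31 and 10, against 8.54, 8.21, 8.42 and 8.62. In both genes the second control array was the lowest of the 8 and the fourth the highest. For Mcm2 (11.10, 11.52, 11.28 and 10.82 against 11.22, 11.25, 11.06 and 11.11) and Cdk1 (11.60, 11.29, 11.42 and 11.74 against 11.49, 11.47, 11.67 and 11.73) the spread was narrower and the groups overlap. Pcna read 7.09, 7.11, 7.24 and 7.21 in controls and 7.06, 7.32, 7.05 and 7.67 in knockouts, which overlap too. The differences of these 3 genes were -0.02, 0.08 and 0.11, none of them called (adjusted p = 0.99, 0.966 and 0.957).

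**Figure D1:**
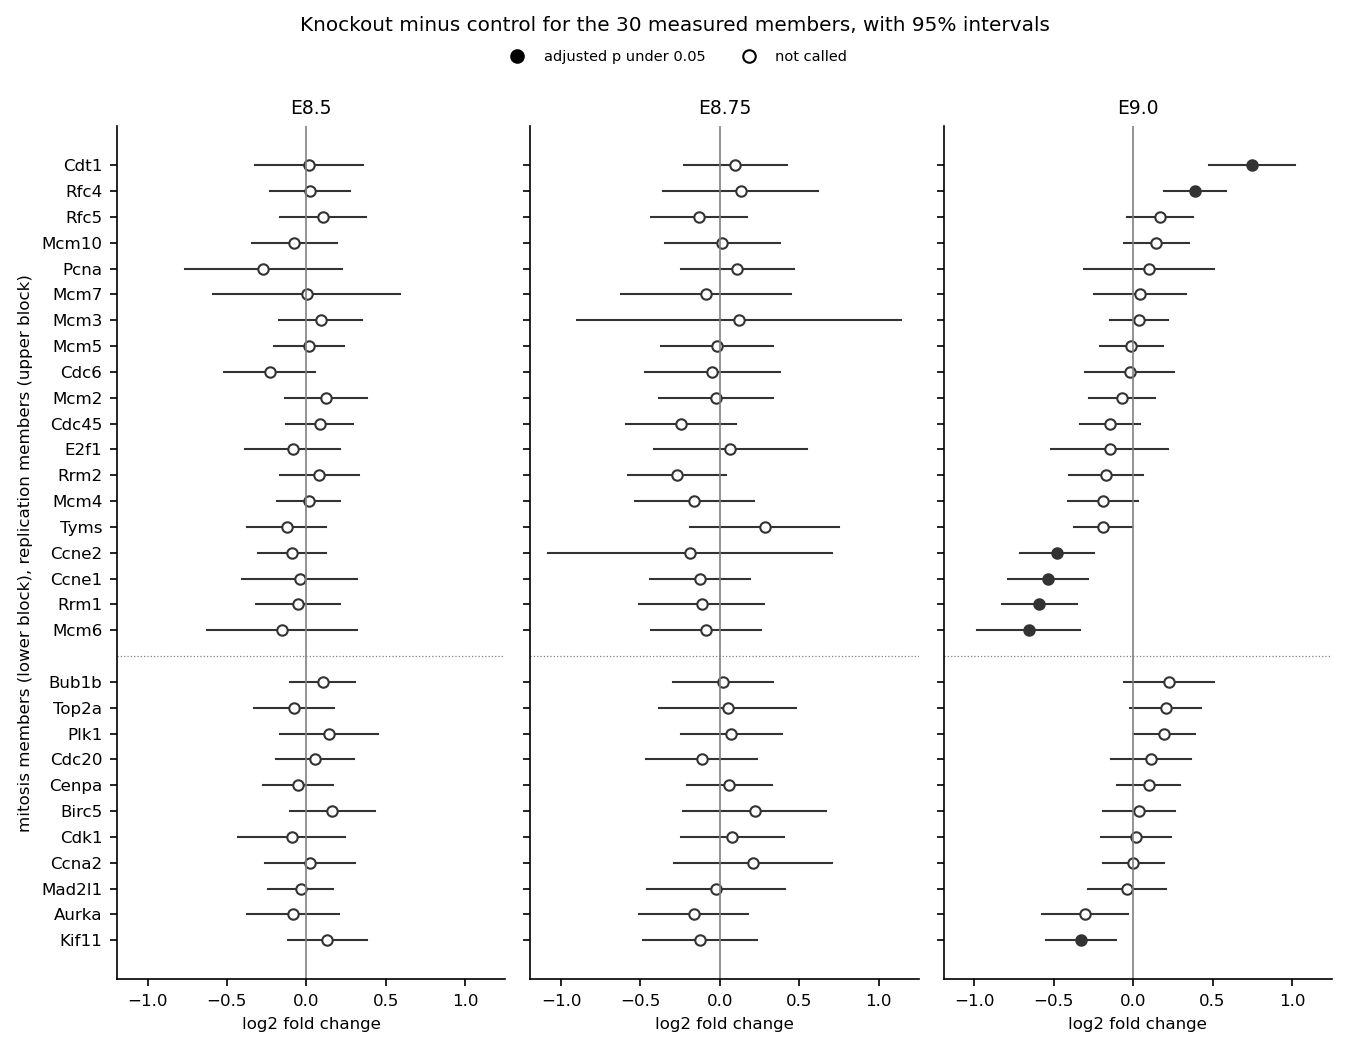
Knockout minus control log2 fold change (horizontal axis) for each measured member at the 3 stages. Points are limma estimates from 4 against 4 arrays, bars their 95% intervals, and filled points have an adjusted p under 0.05. All points are open at E8.5 and E8.75, and 7 are filled at E9.0, with Cdt1 at 0.75 and Mcm6 at -0.66 as the ends of the range.

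At E9.0 the knockout differed from the control in 7 of the 30 members (23.3%), close to the 21.6% of all features that were called. Cdt1 and Rfc4 rose, and Mcm6, Rrm1, Ccne1, Ccne2 and Kif11 fell. Thus 6 of 19 replication members moved, 2 up and 4 down, and 1 of 11 mitosis members, down. Of all features, 11.9% rose and 9.71% fell. The medians stayed near 0, at -0.07 for replication and 0.04 for mitosis, beside 0.01 over all features. Genes of origin licensing and clamp loading are among those that rose, and both cyclin E genes, a helicase subunit and a reductase subunit are among those that fell. In 9 of the 30 members the knockout arrays did not overlap the control arrays, beside 25.5% of all features. These 9 are the called members with Tyms, which was lower, and Plk1, which was higher.

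Promoters of some of the members called at E9.0 are shown, as 250 bases before the RefSeq start (GRCm38.p6), 5′ to 3′ on the gene's strand. Capitals mark E2F matches (TTTNNCGC, where each N is C or G), CHR matches (TTTGAA) and CCAAT matches, each on either strand. Cdt1, which rose, lies at chr8:122567765-122568014 on the plus strand, and Mcm6, which fell, at chr1:128359706-128359955 on the minus strand. Rrm1, which fell, lies at chr7:102441445-102441694, and Kif11, which fell, at chr19:37376132-37376381, both on the plus strand.
Cdt1: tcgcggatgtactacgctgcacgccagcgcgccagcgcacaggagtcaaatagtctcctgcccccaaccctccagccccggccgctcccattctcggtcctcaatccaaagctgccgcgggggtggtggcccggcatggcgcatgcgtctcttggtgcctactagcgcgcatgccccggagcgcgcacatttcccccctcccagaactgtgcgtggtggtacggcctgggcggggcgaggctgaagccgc
Mcm6: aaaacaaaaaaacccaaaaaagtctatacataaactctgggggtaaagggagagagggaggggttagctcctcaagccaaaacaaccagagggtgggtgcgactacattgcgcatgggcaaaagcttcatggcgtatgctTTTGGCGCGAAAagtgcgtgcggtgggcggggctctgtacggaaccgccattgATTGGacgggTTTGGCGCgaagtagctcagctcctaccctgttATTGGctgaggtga
Rrm1: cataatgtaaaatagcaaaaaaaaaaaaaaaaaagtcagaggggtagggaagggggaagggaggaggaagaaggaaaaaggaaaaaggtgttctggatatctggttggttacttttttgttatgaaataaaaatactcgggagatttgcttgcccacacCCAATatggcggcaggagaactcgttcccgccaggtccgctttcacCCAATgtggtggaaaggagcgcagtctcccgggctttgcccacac
Kif11: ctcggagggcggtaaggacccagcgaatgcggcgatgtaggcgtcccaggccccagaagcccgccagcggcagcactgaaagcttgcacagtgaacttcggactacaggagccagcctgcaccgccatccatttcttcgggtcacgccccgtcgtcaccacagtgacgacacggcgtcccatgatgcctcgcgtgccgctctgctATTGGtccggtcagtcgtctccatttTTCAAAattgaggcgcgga
The Mcm6 stretch holds overlapping E2F matches near its middle, another E2F match closer to the start, and 2 inverted CCAAT boxes. Rrm1 holds 2 CCAAT boxes, and Kif11 an inverted CCAAT and, next to the start, an inverted CHR. The printed Cdt1 stretch holds no match, and its E2F match lies past the start, at bases 33 to 40. The same stretches of Ccne1, which fell, and Rfc4, which rose, are not printed and hold no match either.

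Promoter motifs were counted in both sets of members. RefSeq promoters of 300 bases (250 before to 50 after the start) were found for 34 of the 40 members, with 21 windows for replication and 14 for mitosis. An E2F match was present in 8 of 21 replication windows (38.1%) and 1 of 14 mitosis windows (7.14%), against 2.26% of all 32851 windows. A CHR match was present in 2 of 21 replication windows (9.52%) and 10 of 14 mitosis windows (71.4%), against 17.9% of all. CCAAT was found in 66.7% and 85.7%, against 37.4% of all. The CArG box, to which SRF binds, was found in 1 replication window, that of Tyms, in no mitosis window, and in 1.63% of all. A match is no proof of binding, and its absence says only that these letters are not in the window.

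At E9.0 the replication members with an E2F match had 1 call in each direction, too few to read a direction from. Of the 8 replication members with such a match 6 were measured, and Cdt1 was called higher, Mcm6 lower and the other 4 not (Mcm3 0.04, Mcm5 -0.01, Mcm7 0.04 and Cdc6 -0.02). The Mcm6 fall was seen with 1 of its 4 probes. Of the 10 mitosis members with a CHR match 8 were measured, and 1 of them, Kif11, was called lower, a call that did not last (below). Of all features, 21.6% were called in this comparison.

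Among licensing factors, Cdt1, which brings the MCM helicase to origins, read 10.26, 9.97, 10.22 and 10.28 in the E9.0 controls. It read 11.03, 11.18, 10.70 and 10.80 in the knockouts. Every knockout array lay above every control array, by 0.75 ± 0.12 on the log2 scale (SE), 1.68-fold (limma, adjusted p = 0.00259). Its partner Cdc6 did not follow, with 8.80, 8.78, 8.85 and 9.07 against 9.08, 8.51, 8.92 and 8.91 and a difference of -0.02 ± 0.13 (adjusted p = 0.926). The groups overlap for Cdc6, and a second, dimmer Cdc6 probe gave -0.45.

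Among helicase subunits, Mcm6 read 11.55, 11.68, 11.50 and 11.52 in controls and 10.91, 10.48, 11.28 and 10.94 in knockouts. The groups do not overlap, the knockout arrays are the more scattered, and the difference was -0.66 ± 0.15 (1.58-fold lower, adjusted p = 0.0105). The fall was seen with 1 of 4 Mcm6 probes: the other 3 gave -0.18, 0.10 and 0.00, and the mean of the 4 probes gave -0.18 (adjusted p = 0.24). The other helicase subunits stayed between -0.19 (Mcm4) and 0.04 (Mcm3 and Mcm7), and none was called. Mcm2, for example, read 10.94, 11.04, 10.77 and 10.95 against 10.95, 10.93, 10.76 and 10.78, overlapping groups with a difference of -0.07 ± 0.09 (adjusted p = 0.656). Mcm4 is less settled, since its dimmer probes gave -0.41 and -0.46, both called when every probe was tested (adjusted p = 0.0355 and 0.00923, where 20.6% of all probes were called).

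At the replication fork, Rfc4, a subunit of the clamp loader, read 9.07, 8.90, 9.05 and 9.09 in controls and 9.48, 9.42, 9.48 and 9.29 in knockouts. All knockout arrays were higher, by 0.39 ± 0.09 (1.31-fold, adjusted p = 0.0117), and a second, dimmer probe gave 0.42. The fit over all 24 arrays lost this call (adjusted p = 0.11). Rfc5, of the same complex, had 0.17 ± 0.09 (adjusted p = 0.227), and the clamp Pcna 0.10 ± 0.19 (0.75), from 5.26, 5.73, 5.78 and 5.67 against 5.61, 5.26, 6.21 and 5.75. The Pcna groups overlap almost fully.

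Of the enzymes that supply deoxynucleotides, Rrm1, the large subunit of ribonucleotide reductase, read 10.20, 10.40, 10.03 and 10.25 in controls. In the knockouts it read 9.69, 9.44, 9.73 and 9.65. It was lower on every knockout array, by 0.59 ± 0.11 (1.51-fold, adjusted p = 0.0039). The small subunit Rrm2 had -0.17 ± 0.11 by its brightest probe (adjusted p = 0.279) and -0.44 by a second probe of nearly the same brightness, which was called when every probe was tested (0.0104). Tyms, thymidylate synthase, read 11.91, 11.97, 11.93 and 11.92 against 11.84, 11.69, 11.79 and 11.65. These groups do not overlap, but the difference of -0.19 ± 0.08 was not called (adjusted p = 0.125), and its other probes gave -0.21, -0.60 and -0.31.

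The cyclins E, which activate CDK2 at the start of S phase, fell together. Ccne1 read 7.73, 7.99, 8.07 and 7.99 in controls and 7.63, 7.24, 7.29 and 7.46 in knockouts, lower by 0.54 ± 0.11 (1.45-fold, adjusted p = 0.00868). The highest knockout array lies just under the lowest control array. Ccne2 read 8.59, 8.59, 8.80 and 8.73 against 8.36, 8.25, 8.23 and 7.96, with no overlap and a difference of -0.48 ± 0.11 (1.40-fold, adjusted p = 0.0101). In the fit over all 24 arrays, which includes the scattered E8.75 controls, the Ccne2 call was lost (0.287). E2f1, a transcription factor of S phase genes, had -0.15 ± 0.17 and was not called (adjusted p = 0.569).

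Of the 11 mitosis members 1, Kif11, was called at E9.0. Kif11, the kinesin that separates the spindle poles, read 8.57, 8.72, 8.59 and 8.33 in controls and 8.25, 8.17, 8.30 and 8.18 in knockouts, lower by 0.33 ± 0.10 (1.25-fold, adjusted p = 0.0389). The groups are separated by a narrow gap, and the call did not last: it was lost without control array 1, 2 or 3 or without knockout array 1, 2 or 4 (adjusted p = 0.0257 to 0.101 over the 8 such fits), in the fit over all 24 arrays (0.0858), with array weights (0.0592) and with the replicate block (0.0795). The kinase Aurka, which matures the spindle poles, had -0.30 ± 0.12 and was not called (adjusted p = 0.099).

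The remaining mitosis members had small differences, most of them above 0. Plk1, a kinase of mitotic entry and exit, read 11.18, 11.11, 11.18 and 11.09 in controls and 11.26, 11.42, 11.23 and 11.44 in knockouts, without overlap but without a call (0.20 ± 0.09, adjusted p = 0.134). Top2a, which untangles chromosomes, had 0.21 ± 0.10 (adjusted p = 0.173), and Bub1b, of the spindle checkpoint, 0.23 ± 0.13 (0.235). Cenpa, the histone of centromeres, had 0.10 ± 0.09 (adjusted p = 0.484). Cdk1 read 11.77, 11.64, 11.71 and 11.54 against 11.69, 11.54, 11.89 and 11.62, overlapping groups with a difference of 0.02 ± 0.10 (adjusted p = 0.929). Birc5, Cdc20 and Mad2l1 lay between -0.04 and 0.11 and were not called, and for Ccna2 no fold is given because no E9.0 array was above background. The measured mitosis members' 95% intervals all lay within a log2 change of 1, but that of Ccna2, below background on these arrays, bounds no change.

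**Figure D2:**
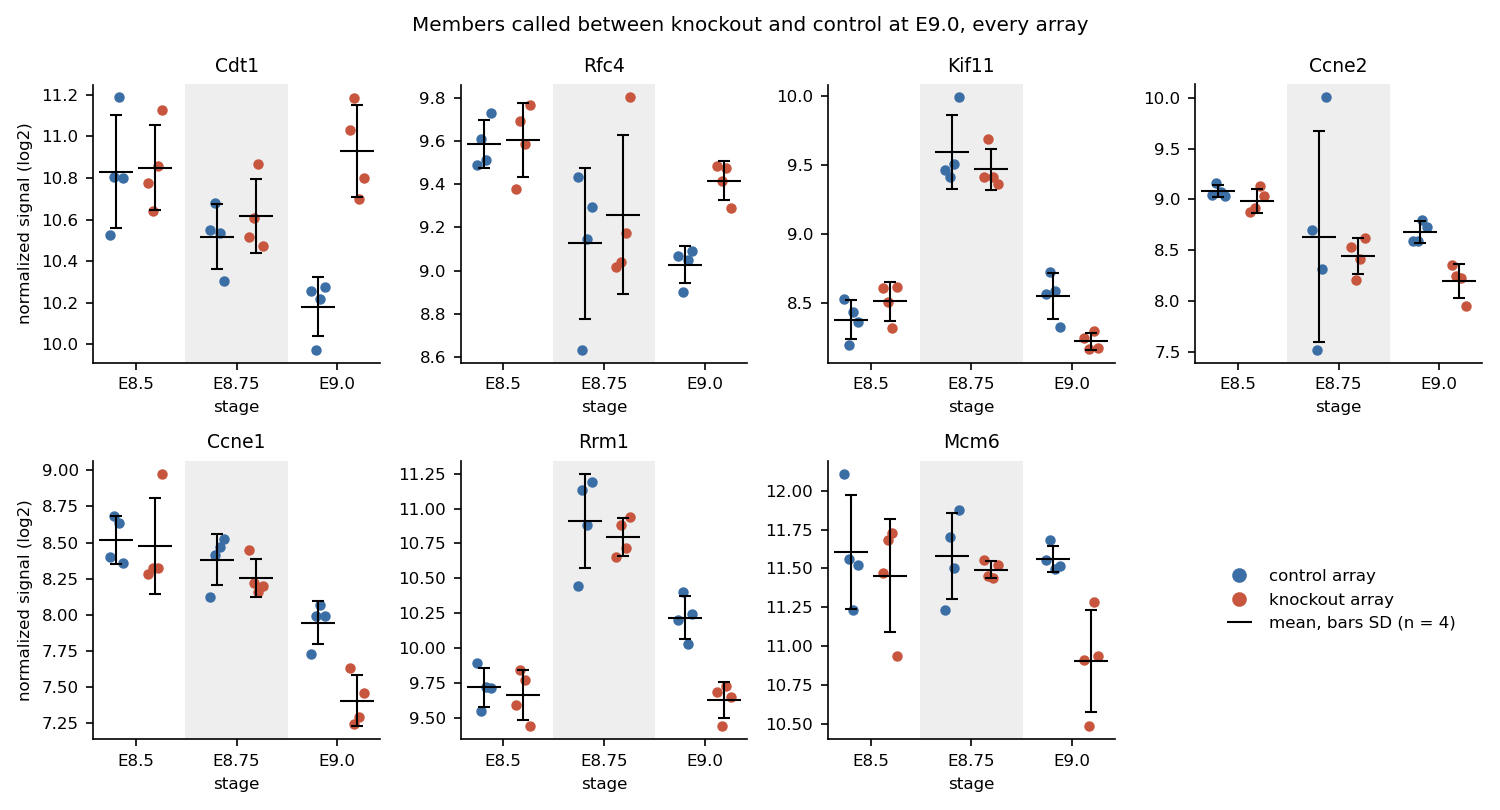
Normalized log2 signal (vertical axis, a scale of its own for each gene) of the 7 members called at E9.0, on every control and knockout array of each stage; black lines are means with SD, n = 4. The grey band marks E8.75, whose arrays were brighter before normalization and are not compared with the other stages. At E9.0 the colours are separated in every panel, and at E8.5 they overlap.

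Lists of other genes of the same processes were read beside the members. Of 42 other replication genes tested at E9.0, 3 rose and 6 fell (21.4% called, close to the 21.6% of all features). Averaged over the 42 genes, log2 signal was 9.29 to 9.34 on the control arrays and 9.21 to 9.26 on the knockout arrays, without overlap. Dut, which keeps uracil out of DNA, fell by 0.81 ± 0.09 (adjusted p = 0.000497), and Fen1, the flap nuclease of the lagging strand, fell by 0.72 ± 0.09 (0.000586). Exo1, a nuclease of mismatch repair, had -0.44 ± 0.10 (0.0113). Pold1, the catalytic subunit of DNA polymerase delta, rose by 0.71 ± 0.14 (0.00617), and its partner Pold2 by 0.37 ± 0.10 (0.0202).

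Of 53 other mitosis genes, 7 rose and 3 fell (18.9% called, beside the same 21.6%). Their mean log2 signal at E9.0 was 8.68 to 8.71 in controls and 8.72 to 8.73 in knockouts, separated by a narrow gap. Hjurp, the chaperone of Cenpa, rose by 0.64 ± 0.10 (adjusted p = 0.00175), Nusap1, a spindle protein, by 0.54 ± 0.13 (0.014) and Ube2s, a ubiquitin enzyme of the anaphase-promoting complex, by 0.49 ± 0.13 (0.0246). Kif23, a kinesin of cytokinesis, fell by 0.70 ± 0.11 (0.00185).

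The calls among G1 and E2F regulators all went one way at E9.0. Of 23 measured G1 cyclins and genes of the E2F, RB and MuvB network, 9 fell and none rose (39.1% called, beside 21.6% of all features), with a median log2 change of -0.17. Those that fell were the D cyclins Ccnd2 (-0.66 ± 0.15, adjusted p = 0.0126) and Ccnd3 (-0.47 ± 0.11, 0.011), their kinase Cdk6 (-0.42 ± 0.12, 0.0339), E2f2 (-0.66 ± 0.20, 0.0415) and E2f4 (-0.51 ± 0.14, 0.0281). The others were Myc (-0.44 ± 0.11, adjusted p = 0.0181), the mitotic transcription factor Foxm1 (-0.31 ± 0.10, 0.0446) and the ubiquitin ligase subunits Fbxw7 (-0.39 ± 0.09, 0.0128) and Skp2 (-0.38 ± 0.10, 0.0176). Averaged over the 23 genes, log2 signal was 8.80 to 8.83 on the E9.0 control arrays and 8.58 to 8.68 on the knockout arrays. At E8.5 these means overlapped (8.78 ± 0.04 against 8.73 ± 0.05, SD), and none of the 23 genes was called at E8.5 or E8.75. Of these 23 genes, 0 passed the limma test of a change of the knockout effect between E8.5 and E9.0, beside 1.64% of all features, and 3 had an unadjusted p under 0.05, beside 16.8% of all features. The erythroid markers and 2 of 7 endothelial markers fell in the same arrays, and their part in this result was not tested.

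Among 18 cell cycle inhibitors, 2 rose and 1 fell at E9.0 (16.7% called, below the 21.6% of all features). Ccng2, an unconventional cyclin linked to arrest, rose by 0.89 ± 0.17 (adjusted p = 0.00445), the CDK inhibitor Cdkn1c (p57) rose by 0.43 ± 0.10 (0.0144), and Tob2, an antiproliferative protein, fell by 0.31 ± 0.09 (0.0321).

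**Figure D3:**
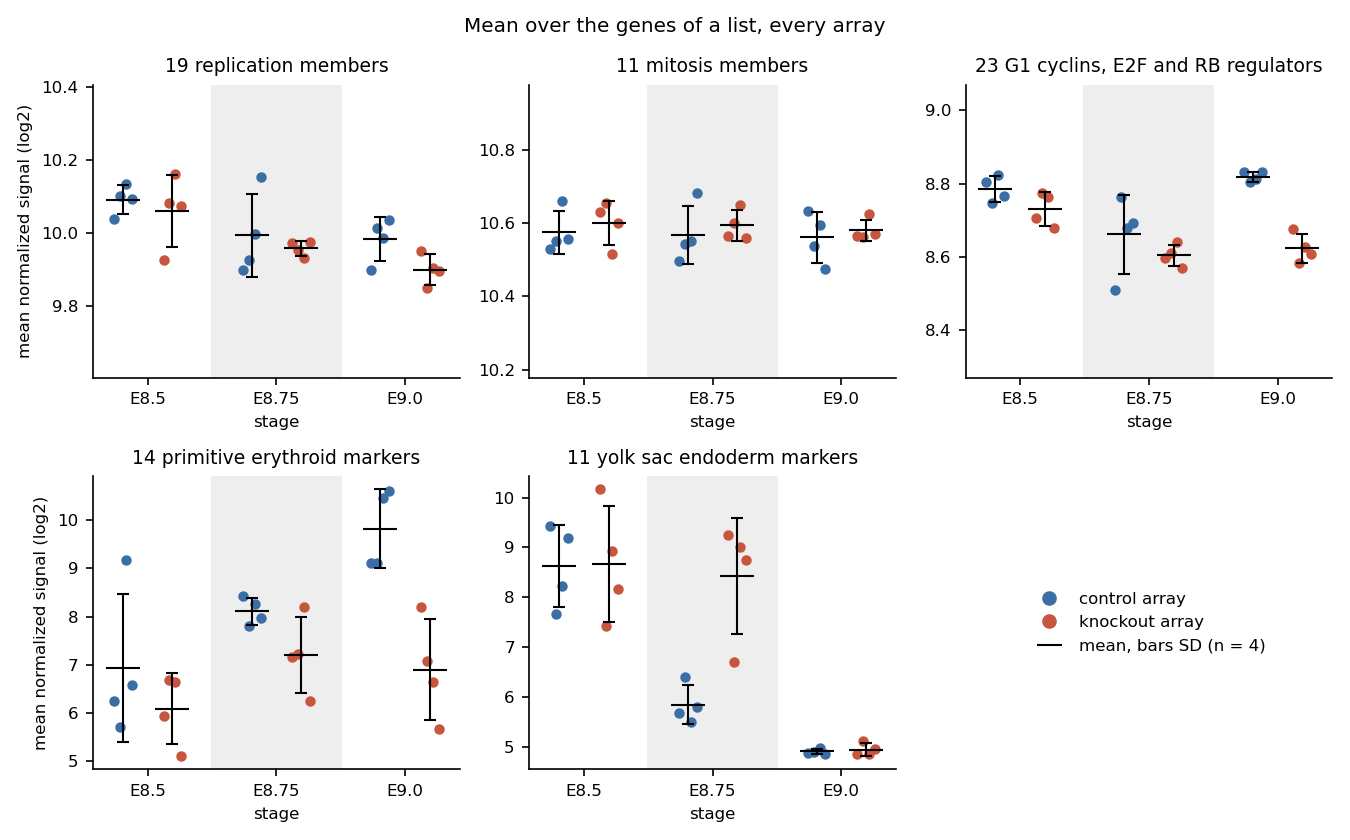
Mean log2 signal (vertical axis) over the genes of a list on every array, by stage and genotype; black lines are means with SD, n = 4, and the grey band marks E8.75. The upper 3 panels span the same height of 0.8 log2 units; the lower 2 have wider scales. At E9.0 the means of the replication members and of the mitosis members overlap between genotypes. Those of the G1 and E2F list (8.80 to 8.83 against 8.58 to 8.68) and of the erythroid markers do not. The lists of other replication and other mitosis genes are not drawn, and their E9.0 means do not overlap either.

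The replication members also differed between stages, which cannot be told apart from processing here. Between E8.5 and E9.0 in control embryos, 12 of 30 members were called (40.0%), beside 36.4% of all features. Of the 19 replication members 4 rose and 6 fell (52.6% called), and of the 11 mitosis members 1 rose and 1 fell, while 16.6% of all features rose and 19.9% fell. Yolk sac endoderm markers fell over the same interval in 11 of 11 genes, by a median of 3.85, and 13 of 14 erythroid markers (median 2.79) and 5 of 7 endothelial markers (median 0.84) rose. Of the 14 caudal end markers, 5 rose and 3 fell (57.1% called), with log2 changes from -3.70 to 1.61. Their part in the members' changes was not tested.

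Of the helicase genes, Mcm7, Mcm3 and Mcm2 rose with stage. Mcm7 went from 8.68, 8.88, 9.48 and 9.22 at E8.5 to 9.83, 10.28, 10.16 and 9.92 at E9.0 in the controls, a rise of 0.98 ± 0.17 (1.97-fold, adjusted p = 0.00139) without overlap. Mcm3 rose by 0.35 ± 0.10 (adjusted p = 0.0147) and Mcm2 by 0.31 ± 0.10 (0.0281), the latter lost without control array 3 or 4 of E8.5 or array 1, 2 or 4 of E9.0 and in the fit over all 24 arrays (0.0712). Rrm1 rose by 0.50 ± 0.11 (0.00474), from 9.89, 9.55, 9.72 and 9.71 to the values given above for E9.0, all of which were higher.

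Licensing, clamp and cyclin E genes fell with stage. Pcna fell by 1.04 ± 0.15 (2.06-fold, adjusted p = 0.000432), from 6.40 to 7.01 on the E8.5 arrays to 5.26 to 5.78 at E9.0. Over 10 alternative runs the Pcna change was -1.06 to -0.61, called in each. Its single probe was above background on all 24 arrays but dim at E9.0, where Ccna2, below background, averaged 4.48 in the controls. Cdc6 read 9.55, 9.60, 9.55 and 9.67 at E8.5, above all 4 arrays at E9.0, and fell by 0.72 ± 0.09 (1.64-fold, adjusted p = 0.000258), but its dimmer probe gave 0.18. Rfc4 read 9.49, 9.61, 9.51 and 9.73 at E8.5, again above every E9.0 array, and fell by 0.56 ± 0.09 (1.47-fold, adjusted p = 0.00101). Cdt1 fell by 0.65 ± 0.14 (0.0041), Ccne1 by 0.57 ± 0.11 (0.00268) and Ccne2 by 0.40 ± 0.09 (0.00525). The E8.5 and E9.0 control arrays did not overlap for any of these 6 genes, which were picked because they were called. Whether called or not, 11 of the 19 replication members and 14 of all 30 members were separated so, beside 34.7% of all features.

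Among mitosis members, Bub1b read 8.85, 8.90, 8.90 and 8.79 at E8.5, then 9.41, 9.18, 9.32 and 9.09 at E9.0 in controls, a rise of 0.39 ± 0.10 (1.31-fold, adjusted p = 0.00904). Cdc20, the activator of the anaphase-promoting complex, read 12.13, 12.38, 12.49 and 12.33 at E8.5, then 12.11, 11.73, 12.09 and 11.89 at E9.0. The groups are just apart and Cdc20 fell by 0.38 ± 0.11 (1.30-fold, adjusted p = 0.0244), but its other 3 probes gave -0.02, 0.20 and 0.21, their mean with it 0.00, and the call was lost without array 2, 3 or 4 of E8.5 or array 2 or 4 of E9.0. Mad2l1, of the spindle checkpoint, read 11.11, 11.05, 11.02 and 11.15 and then 10.97, 10.89, 10.92 and 10.83. These too were separated, but the difference of -0.18 ± 0.08 was not called (adjusted p = 0.116), though it was with offset 50 (0.0407) and in the deposited values (0.0444).

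In knockout embryos 7 of 30 members were called between the same stages (23.3%), beside 27.8% of all features (13.5% higher and 14.3% lower). Mcm7 rose by 1.02 ± 0.24 (adjusted p = 0.0115) and Bub1b by 0.51 ± 0.13 (0.0146), and Ccne1 (-1.07 ± 0.17, 0.00151), Ccne2 (-0.79 ± 0.11, 0.00107), Rrm2 (-0.51 ± 0.11, 0.00754), Cdc6 (-0.51 ± 0.16, 0.0355) and Mcm4 (-0.33 ± 0.10, 0.0359) fell. Mcm7 read 8.37, 8.90, 9.68 and 9.32 at E8.5, then 9.95, 10.26, 9.88 and 10.25 at E9.0, so the rise was seen in both genotypes, without overlap. Ccne1 read 8.29, 8.32, 8.32 and 8.98 at E8.5, against 7.63, 7.24, 7.29 and 7.46 at E9.0. The Cdc6 call was lost without knockout array 2 or 3 of E8.5 or array 2, 3 or 4 of E9.0, without the filter on dim probes (adjusted p = 0.0569) and with the replicate block (0.0695). The mean of the Cdc6 probes gave -0.30 (adjusted p = 0.115). The cyclin E genes fell in both genotypes, and Mcm4's dimmer probes gave 0.40 and 0.13, against the fall of the brightest.

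Between the stages, 7 members were called in controls and not in knockouts, and Rrm2 and Mcm4 in knockouts and not in controls. Over all features too, more were called in controls (36.4%) than in knockouts (27.8%). The share of all features called in only 1 genotype was not counted. The 7 members called in controls alone were Cdt1, Rrm1, Rfc4, Mcm2, Mcm3, Pcna and Cdc20. Cdt1 read 10.53, 10.81, 11.19 and 10.80 in the E8.5 controls and 10.78, 10.64, 10.86 and 11.13 in the E8.5 knockouts, and its stage change was -0.65 in controls and 0.08 ± 0.14 in knockouts (adjusted p = 0.721). Rrm1 read 9.59, 9.84, 9.78 and 9.45 in the E8.5 knockouts and changed by 0.50 in controls and -0.04 ± 0.12 in knockouts (0.852). Rfc4 read 9.38, 9.70, 9.59 and 9.77 in the E8.5 knockouts and changed by -0.56 in controls and -0.19 ± 0.11 in knockouts (0.235). The other 4 kept the sign they had in controls: the knockout changes were 0.12 for Mcm2 (adjusted p = 0.492), 0.30 for Mcm3 (0.065), -0.67 for Pcna (0.0692) and -0.32 for Cdc20 (0.0557). Of these, Pcna was called in the fits of 16 and of all 24 arrays (adjusted p = 0.0263 and 0.0178), with array weights (0.0205) and without knockout array 1 of E8.5 or 3 of E9.0. Cdc20 was called in the fit of 16 arrays (0.0351), with normalization of the compared arrays alone (0.0339), with offset 50 (0.0324), in the deposited values (0.0299) and without knockout array 3 of E8.5 or 2 of E9.0.

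The test of that difference itself called none of the 30 members, beside 1.64% of all features, and 6 members had an unadjusted p under 0.05, beside 16.8% of all features. The knockout effect changed from E8.5 to E9.0 by 0.73 ± 0.20 for Cdt1 (adjusted p = 0.0834), -0.54 ± 0.16 for Rrm1 (0.0986) and -0.39 ± 0.14 for Ccne2 (0.16). Among mitosis members the smallest p were those of Kif11 (-0.46 ± 0.15, adjusted p = 0.116), Top2a (0.28 ± 0.15, 0.351) and Cenpa (0.15 ± 0.12, 0.583). Cdt1 passed with array weights (0.0187) and in 2 of 16 fits that leave out an array, without E8.5 control array 1 or E8.5 knockout array 4, and Rrm1 passed with array weights (0.0255). Among the other lists, Fen1 (-0.62 ± 0.12, adjusted p = 0.0157) and Hjurp (0.58 ± 0.14, 0.0448) passed. The comparisons of the knockout at E9.0 and of the stages share arrays, so their values are given side by side and not as independent evidence of each other.

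**Figure D4:**
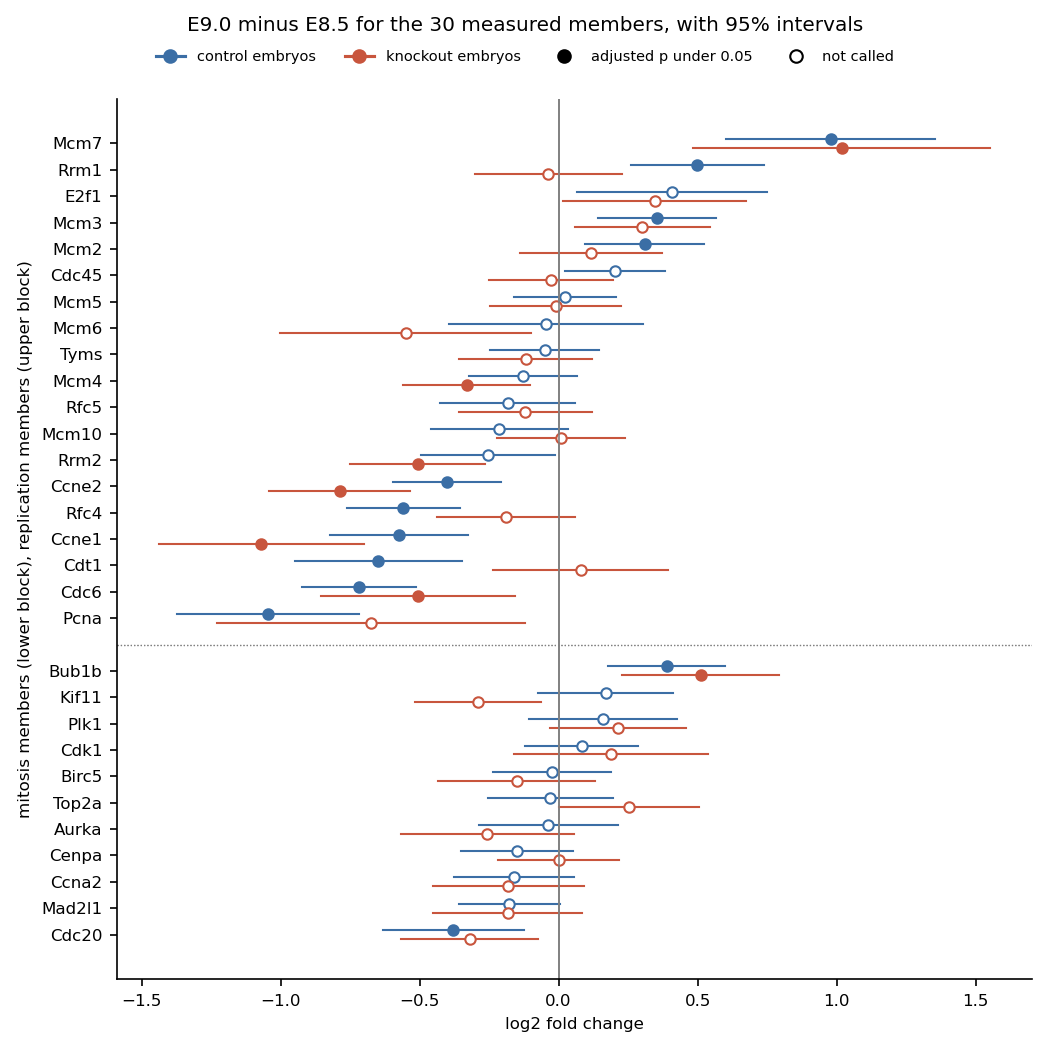
E9.0 minus E8.5 log2 fold change (horizontal axis) of each measured member in control and knockout embryos, with 95% intervals; filled points have an adjusted p under 0.05. Mcm7 is at the top in both genotypes (0.98 and 1.02), Ccne1, Ccne2 and Cdc6 are filled below 0 in both, and 7 members, among them Cdt1, Rrm1 and Rfc4, are filled in control embryos and open in knockouts. Of all features, 36.4% were called in controls and 27.8% in knockouts.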

How the data were processed

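Total RNA of 24 samples was read on Illumina bead arrays. Trizol extraction, RNeasy and DNase clean-up, a Bioanalyser check and biotin labelling of cRNA are given per the labels' protocols. Per the file headers, the deposited table without normalization gives, for every array, a linear intensity averaged over a probe's beads and a detection p-value. The deposited value table, used as an alternative, holds intensity that the authors had already brought to a shared distribution, as read from its values. GenomeStudio is named in the submitters' processing notes, without version; how it was set is not stated in the sources used here.

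The linear values were corrected for background, quantile normalized and turned to log2 by neqc in limma 3.58.1 (R 4.3.3, offset 16, negative controls inferred from the detection p-values). A probe was kept where at least 4 of 24 arrays had a detection p under 0.05 (14927 probes), and the brightest probe over all arrays stood for each gene, which left 11008 features. Each comparison was fitted with limma on the arrays it compares, 4 a group, and a Benjamini-Hochberg adjusted p under 0.05 over all features made a call. Changes are differences of log2 means with their SE, unless written as N-fold. The number of arrays limits the precision. Only the limma fit was tested on simulated data, and the other steps were not. No arrays were identical (highest correlation 0.996).

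Genes were named by a rule: every member called at E8.5 or E8.75, the 6 replication and 6 mitosis members of smallest p at E9.0, the 3 and 3 of smallest p between stages in controls and in the change of the knockout effect, and up to 4 called genes of each other list with the largest change at E9.0, with values on every array for Mcm2, Pcna, Cdk1 and Srf. Others, such as Mcm3, Mcm4, Mcm7, Tyms, Rrm2 and the other called G1 and E2F genes, were named after their values were seen. The members and the gene lists were chosen with earlier results of these data known. Promoter sequences are from RefSeq (GRCm38.p6). Figures were drawn with matplotlib 3.10.9. Alternatives tried were the samples in the fit, the normalization and offset, the filter, the choice of probe, array weights, a replicate block and leaving out each array.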

Additional observations from a re-analysis of the deposited data

Results flagged for a closer look

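For 20 measures (the named members and the means of both sets) in 6 groups, 1 array stood far from the other 3 in 5 of 120 groups (4.17%), and chance alone sets apart about 1 group in 20. Cdk1 was low on knockout array 4 of E8.5, at 11.02 against 11.61 on the next array. Ccne1 was high on the same array, at 8.98 against 8.32. Kif11 was high on control array 4 of E8.75, at 9.99 against 9.50, and on knockout array 2 of E8.75, at 9.69 against 9.41. The mean of the mitosis members was high on knockout array 3 of E9.0, at 10.62 against 10.57, a gap far smaller than that of the single genes.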

How the results depend on the processing

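No named member changed sign in an alternative run by gene where it was called there or in the main run. No member was called at E8.5 or E8.75 in any alternative run. A median did change sign, as given below for the change of the knockout effect. At E9.0, 10 replication members had at least 1 called probe when every probe was tested. That is a count of genes, and 7 of the 19 measured had several kept probes. It therefore cannot be set against the 20.6% of all single probes that were called. The replication median became -0.15 there, as it did with the mean of a gene's probes. The mitosis count there fell to 0 in the fit of all 24 arrays, with array weights and with the replicate block, and ranged from 0 to 1 when an array was left out. The E8.5 mitosis median was 0.10 with every probe and -0.025 to 0.11 with an array left out, and the E8.75 replication median -0.12 to -0.023. Between stages in controls, the replication median was -0.044 with mean probes and -0.051 with every probe, and the mitosis count was 1 with mean probes and 1 to 2 with an array left out. Between stages in knockouts, the mitosis count was 3 in the fit of 16 arrays, with normalization of the compared arrays alone, with offset 50 and in the deposited values, 2 without a filter, with mean probes or with array weights, and 1 to 3 with an array left out. The knockout mitosis median was -0.077 with offset 50, -0.075 with the stricter filter (detection p under 0.01 on at least 8 arrays), -0.070 without a filter, -0.060 with mean probes, -0.054 with every probe or array weights, and -0.17 to -0.071 with an array left out, and the replication median was -0.028 with mean probes. For the change of the knockout effect, the mitosis median changed sign, from 0.053 to -0.021 with mean probes or every probe. There the replication median was -0.15 with every probe, and the replication count was 2 with array weights and 0 to 1 with an array left out. Why these values moved was not tested. Over all features, the E9.0 calls went from 2383 to 1454 in the fit of all 24 arrays and 1553 to 2380 with an array left out, the E8.75 calls from 5 to 436 with array weights and 58 with all 24 arrays, the E8.5 calls from 1 to between 0 and 7, and the calls of a changed knockout effect from 180 to 93 with all 24 arrays and 513 with array weights. Replicate numbers did not pair the arrays (correlation of deviations -0.255 to 0.40 over 20 pairs, 5 over 0.1, own number best in 7), and the replicate block moved the E9.0 calls from 2383 to 1605 and the replication members called between stages in knockouts from 6 to 4.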

Other observations

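Probes of the same member did not always move together between stages, which bears on any reading of a single probe. In control embryos from E8.5 to E9.0, the brightest Mcm6 probe changed by -0.04 and another by -0.88 ± 0.12 (limma, adjusted p = 0.00023 over all probes). The brightest Tyms probe changed by -0.05, and its 2 dimmest rose by 0.52 each (0.00144 and 0.0254). The brightest Mcm4 probe changed by -0.13 and a dim one rose by 0.61 ± 0.11 (0.00117). For Birc5, an inhibitor of apoptosis that acts in the chromosomal passenger complex, the brightest probe changed by -0.02 and the next brightest rose by 0.35 ± 0.08 (0.00785). Which transcripts these probes read was not tested. In the knockouts Rrm2 fell over the same interval by both of its probes (-0.51 and -0.82).

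Among the other lists in control embryos, Cdc25a, a phosphatase that activates CDKs, rose by 0.91 ± 0.12 between E8.5 and E9.0 (adjusted p = 0.000222) and Bub3, a spindle checkpoint protein, by 0.79 ± 0.11 (0.000358). Tpx2, which activates Aurora A on the spindle, fell by 0.81 ± 0.12 (0.000631) and Kif18a, a kinesin that aligns chromosomes, by 0.76 ± 0.11 (0.000434). Of 53 other mitosis genes 9 rose and 10 fell in this comparison (35.8% called, beside 36.4% of all features). These genes were named after their values were seen.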
